A study of Mus musculus with 6 samples.

Results

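C-type lectins, sialic acid-binding Siglecs, CD300 receptors, Fc gamma receptors and the paired Lilr and Pilr receptors are surface receptors by which macrophages, neutrophils, dendritic cells and other leukocytes sense sugars, lipids, antibodies and dying cells. Their genes were taken as every array feature whose annotated mouse symbol began with Clec, Siglec, Cd300, Fcgr, Lilr or Pilr, with Clec4f and Clec4g left out, which serve below as markers of Kupffer cells and of sinusoidal endothelium. The rule found 42 genes of the 17347 named on the arrays, 41 of them on the oligonucleotide array and 16 on the cDNA array.

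The samples were livers of female C57BL/6 mice, 7 weeks old at the start and fed chow with 4.4% fat. Treated mice received 0.5 g/kg of poloxamer P-407, a block copolymer used to induce hyperlipidaemia, by intraperitoneal injection every 3 days. Control mice received saline on the same schedule, and livers were collected at day 96. The 12 treated mice gave 3 RNA pools and the 4 control mice gave 1, so no value belongs to a single animal and the spread between control animals was not measured. Each treated pool, labelled with Cy5, was set against that control pool, labelled with Cy3, on 1 oligonucleotide array and 1 cDNA array, which makes 6 arrays. Every value is a log2 ratio of a P-407 pool over the control pool, so a positive value means more RNA of that gene in treated liver. The deposited numbers are log ratios whose base, centring and direction the labels do not state. They were read here as log2 and as treated over control, following the order in the sample titles and the dyes. In whole liver, more cells of a type and more RNA per cell cannot be told apart.

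Activating members of these families carry, or pair with adaptor proteins that carry, an immunoreceptor tyrosine-based activation motif, which recruits the kinase Syk. Inhibitory members carry an inhibitory motif that recruits phosphatases. Many of the genes lie side by side in clusters where activating and inhibitory relatives alternate. In liver, Kupffer cells and recruited macrophages carry many of them, and sinusoidal endothelium carries some.

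Promoters of members are shown first, since many members are genes of myeloid cells and the bases next to their starts can be set beside their ratios. The windows come from a RefSeq table of build GRCm38.p6 and run over 300 bases, from 250 before to 50 after a gene start. They were found for 35 of the 42 members, as 40 windows. Each window was searched on both strands for GAGGAAG, a form of the binding motif of PU.1, the main transcription factor of myeloid cells, whose GGAA core other ETS factors share. The 100 bases before the start are printed for 4 called members with a match there and for the 4 members with the highest ratios, which have none in the whole window. They run 5′ to 3′ on the strand of the gene, and capitals mark GAGGAAG, which reads CTTCCTC where it lies on the opposite strand. On chromosome 3 the Fcgr1 stretch is chr3:96293970-96294069 on the minus strand. On chromosome 1, Fcgr3 is chr1:171059404-171059503 on the minus strand and Fcgr4 is chr1:171018826-171018925 on the plus strand. Cd300lf is chr11:115133993-115134092 and Cd300c2 is chr11:115001881-115001980, both on the minus strand. Clec7a is chr6:129472780-129472879 on the minus strand and Clec1b is chr6:129397197-129397296 on the plus strand. Lilr4b is chr10:51480512-51480611 on the plus strand.
Fcgr1: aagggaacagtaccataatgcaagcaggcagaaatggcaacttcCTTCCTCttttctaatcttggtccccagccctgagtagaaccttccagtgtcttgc
Fcgr3: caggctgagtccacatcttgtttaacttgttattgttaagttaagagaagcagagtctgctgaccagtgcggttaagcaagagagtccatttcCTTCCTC
Fcgr4: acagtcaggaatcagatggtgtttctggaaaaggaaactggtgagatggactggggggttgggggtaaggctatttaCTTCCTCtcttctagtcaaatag
Cd300lf: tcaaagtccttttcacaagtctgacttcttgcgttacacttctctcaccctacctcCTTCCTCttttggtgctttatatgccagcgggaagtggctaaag
Clec7a: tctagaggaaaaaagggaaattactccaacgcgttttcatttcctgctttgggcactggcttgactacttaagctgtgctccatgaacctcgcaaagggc
Lilr4b: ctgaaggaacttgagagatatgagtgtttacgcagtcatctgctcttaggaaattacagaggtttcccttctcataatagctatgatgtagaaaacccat
Cd300c2: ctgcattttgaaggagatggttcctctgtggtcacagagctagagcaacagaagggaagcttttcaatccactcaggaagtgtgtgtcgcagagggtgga
Clec1b: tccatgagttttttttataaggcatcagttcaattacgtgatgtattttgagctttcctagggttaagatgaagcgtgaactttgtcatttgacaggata

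GAGGAAG was found in 14 of the 40 member windows (35%) and in 13.6% of the 32851 windows of all genes. The members with a window that were called higher on the oligonucleotide array held it in 8 of 15 cases, the members called lower in 0 of 4, and the members not called in 5 of 16. The other motifs searched on both strands were TTGCNNAA for CEBP factors, in 27.5% of member windows and 10.8% of all, GAAANNGAA for IRF factors, in 27.5% and 8.6%, TGANTCA for AP-1, in 10.0% and 7.8%, and the E-box CACGTG, in 2.5% and 7.2%. The IRF form was chosen after a longer form that contains it had been counted. The longer form can only match the same windows or fewer, so these shares depend on the form. These counts describe letters in a short window and were not tested.

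On the oligonucleotide array all 41 members had a value on every array. Limma called 17 higher and 7 lower in the treated pools at an adjusted p under 0.05, with 17 not called. The 17 higher members are 41.5% of those tested, where 22.0% of all 16871 genes were called higher. The 7 lower members are 17.1%, where 21.4% of all genes were called lower. The share of lower members is thus close to that of all genes, and the excess is on the higher side. The difference was wider among larger changes. A mean log2 ratio of at least 0.58, which is 1.5-fold, was reached by 7 called members in the higher direction (17.1%, against 2.16% of all genes) and by 0 in the lower direction (against 1.26%). At 2-fold there were 5 members higher and 0 lower. The median member lay at 0.061 and the median gene at 0.0027, and the median absolute log2 ratio was 0.25 for members and 0.13 for all genes. Members were no more often of 1 sign on the 3 arrays than other genes (28 of 41, 68.3%, against 69.2% of all genes).

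**Figure D1:**
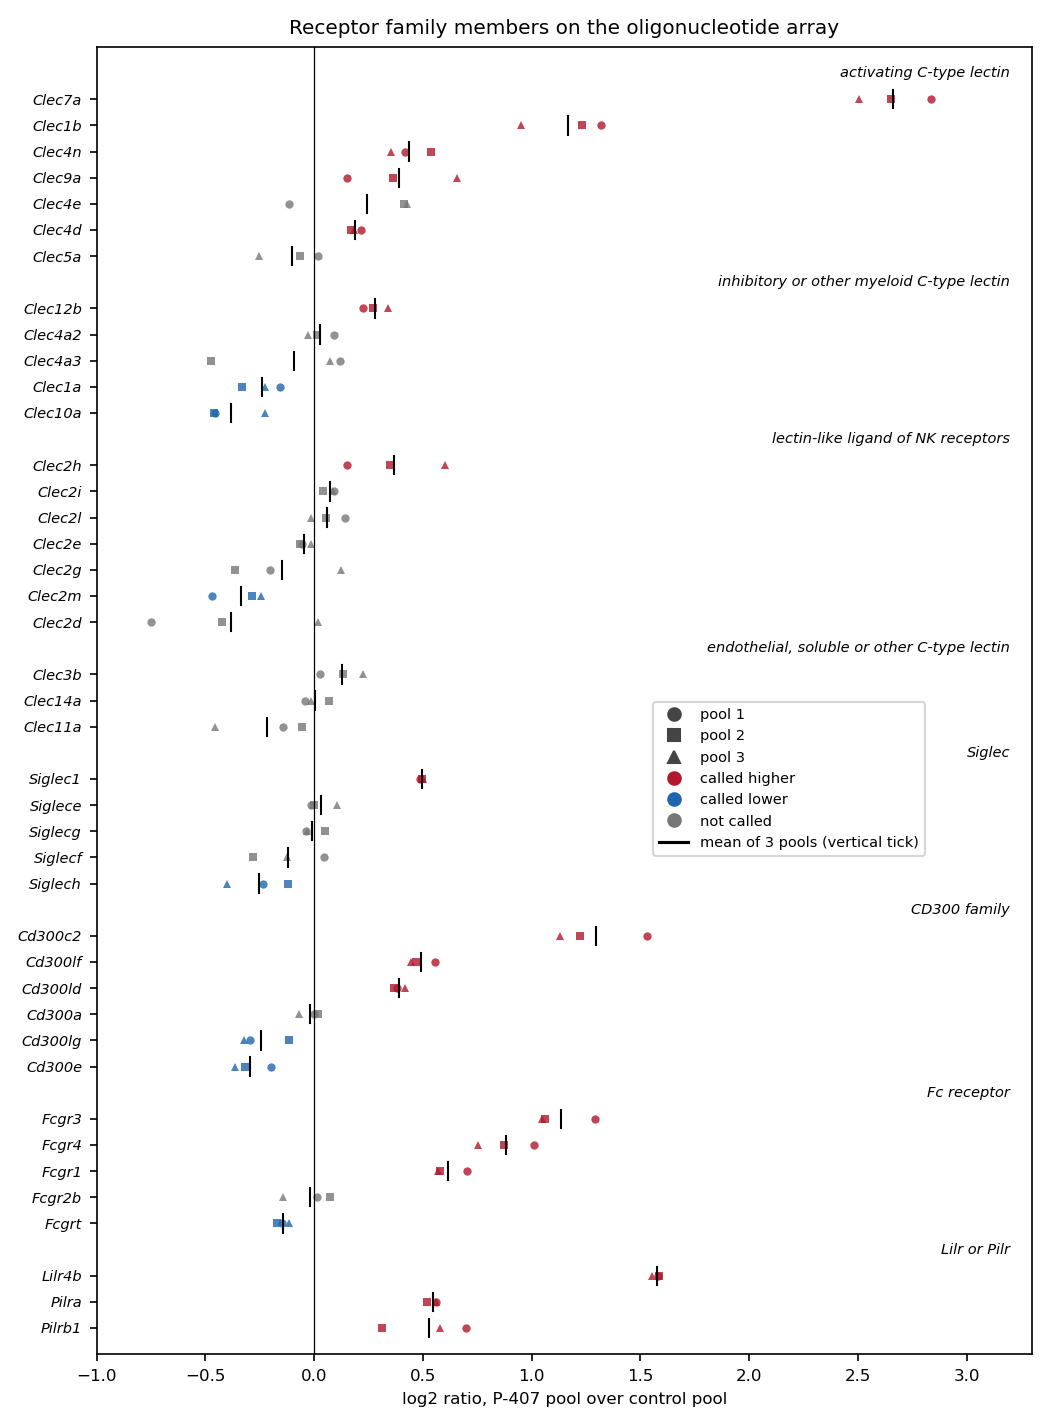
Log2 ratio of each P-407 pool over the control pool on the oligonucleotide array (x axis) for the 41 members, grouped by role (y axis), with 1 symbol per pool, a vertical tick at the mean and colour for the call. Clec7a lies farthest to the right at 2.51 to 2.83, and the 7 members called lower all have means above -0.58.

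Small differences passed the threshold across the whole array, also in genes that the liver is not known to use. Of 862 genes of odorant, vomeronasal and trace amine receptors, a list chosen with the values known, 95 were called higher (11.0%, against 22.0% of all genes) and 216 lower (25.1%, against 21.4%). Among those called, the means reached 0.59 on the higher side and -0.92 on the lower. Called members with an absolute mean beyond 0.92 were Clec7a, Lilr4b, Cd300c2, Clec1b and Fcgr3, 5 in all. Another 3 genes of the list were not called but had an absolute mean beyond 0.92, up to 2.08, which of the members Clec7a alone exceeded.

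Of 7 activating C-type lectins, 5 were called higher and 0 lower (against 22.0% and 21.4% of all genes), with a median log2 ratio of 0.39. Of the 5, Clec4d and Clec9a were not called with 1 pool left out. Clec7a, which encodes dectin-1, the receptor for fungal beta-glucans that signals to Syk through its own tail, had log2 ratios of 2.83, 2.65 and 2.51 in pools 1, 2 and 3. All 3 treated pools were far above the control pool, and the range between them was small beside the ratio. The mean was 2.66 ± 0.17 (SD, n = 3 pools), a 6.33-fold increase (limma adjusted p = 4.73e-05), and 3 genes called higher on the array had a larger mean. Clec1b encodes CLEC-2, the podoplanin receptor best known from platelets. It had log2 ratios of 1.32, 1.23 and 0.95, a mean of 1.17 ± 0.19 and a 2.25-fold increase (adjusted p = 4.69e-04). Pool 3 was the lowest of the 3 for both genes.

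Dectin-2, the mannan receptor encoded by Clec4n, lay at 0.42, 0.54 and 0.35, with a mean of 0.43 ± 0.094 (adjusted p = 0.00201). Clec4d and Clec4e, which encode receptors for mycobacterial glycolipid and follow Clec4n in that order on the chromosome, moved less. Clec4d rose to a mean of 0.19 ± 0.024 (adjusted p = 0.0130) and was not called without pool 1. Clec4e, which encodes Mincle, had log2 ratios of -0.11, 0.41 and 0.43 and was not called (adjusted p = 0.125), but was called without pool 1. Clec9a encodes a receptor for actin exposed by dead cells and marks cross-presenting dendritic cells. It spread over 0.15, 0.36 and 0.66 around a mean of 0.39 ± 0.26 (adjusted p = 0.0197) and was not called without pool 2. Clec5a, a lectin that signals through DAP12, lay at 0.015, -0.065 and -0.25 and was not called.

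The inhibitory and other myeloid C-type lectins gave 1 higher and 2 lower of 5 genes (against 22.0% and 21.4% of all genes), with a median of -0.094. Clec12b, which carries an inhibitory motif, rose to 0.28 ± 0.058 (adjusted p = 0.00494). Clec10a encodes the galactose-type lectin MGL1, a marker of alternatively activated macrophages and dendritic cells. Its log2 ratios of -0.46, -0.46 and -0.23 were all below 0, with a mean of -0.38 ± 0.13 (adjusted p = 0.00488). Clec1a, a lectin found on endothelium and myeloid cells, fell by 0.24 ± 0.090 (adjusted p = 0.0120), a call that was lost without pool 2. The inhibitory receptor gene Clec4a2 lay at 0.026 ± 0.061 and its relative Clec4a3 at -0.094 ± 0.33, and neither was called. Pool 2 of Clec4a3, at -0.47, stood apart from 0.12 and 0.073 in the other pools.

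Clec2 genes encode small lectin-like ligands for receptors of NK cells. Of 7, 1 was called higher and 1 lower (against 22.0% and 21.4% of all genes), and the median was -0.046. Clec2h rose to 0.37 ± 0.22 (adjusted p = 0.0171), with pools between 0.15 and 0.60, and was not called without pool 2. Clec2m fell by 0.33 ± 0.12 (adjusted p = 0.00593). Clec2d encodes the ligand by which cells engage an inhibitory NK receptor. It had log2 ratios of -0.75, -0.42 and 0.017, the widest spread of any member on this array (SD 0.38), and was not called (adjusted p = 0.0621). Without pool 3, Clec2d and Clec2g were called lower, so that 3 of the 7 genes were lower. Clec2i, Clec2l, Clec2e and Clec2g had means between -0.15 and 0.072 and were not called.

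Of the soluble and endothelial lectins, 0 of 3 were called, where 22.0% of all genes were called higher and 21.4% lower. Clec3b, which encodes the plasminogen-binding protein tetranectin, lay at 0.13 ± 0.099. Clec11a, which encodes a secreted growth factor, lay at -0.22 ± 0.21. Clec14a, an endothelial lectin, was the member nearest to 0, at -0.044, 0.068 and -0.016 in the 3 pools.

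Siglecs bind sialic acid on other cells or on the same cell. Of 5, Siglec1 was called higher and Siglech lower (against 22.0% and 21.4% of all genes), and the median was -0.0088. Siglec1 encodes sialoadhesin, an adhesion receptor of macrophages that lacks a signalling motif. Its log2 ratios of 0.48, 0.50 and 0.50 were nearly the same in the 3 pools, with a mean of 0.49 ± 0.0077 (1.41-fold, adjusted p = 7.26e-04). Siglech marks plasmacytoid dendritic cells and pairs with DAP12. It fell by 0.25 ± 0.14 (adjusted p = 0.0205), a call that was lost without pool 1 and without pool 3. The inhibitory members Siglece, Siglecf and Siglecg were not called, with Siglecg at -0.039, 0.048 and -0.035.

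The CD300 receptors bind lipids such as phosphatidylserine and ceramide. Of 6, 3 were called higher and 2 lower (against 22.0% and 21.4% of all genes), with a median of 0.19. Cd300c2, an activating member, had log2 ratios of 1.53, 1.22 and 1.13. All 3 treated pools were more than 2-fold above the control pool, at a mean of 1.29 ± 0.21 (2.45-fold, adjusted p = 4.31e-04). The inhibitory Cd300lf rose to 0.49 ± 0.059 (adjusted p = 0.00101) and the activating Cd300ld to 0.39 ± 0.027 (adjusted p = 0.00148). Cd300e, an activating receptor of monocytes, fell by 0.29 ± 0.086 (adjusted p = 0.00570). Cd300lg, an adhesion receptor of endothelium, fell by 0.25 ± 0.11 (adjusted p = 0.0150) and was not called without pool 1 or without pool 3. The inhibitory Cd300a was among the 3 members nearest to 0, at -0.0017, 0.020 and -0.071.

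The Fc gamma receptors bind antibody of class IgG. The 3 activating genes were called higher (against 22.0% of all genes), and the inhibitory gene was not called. Fcgr3 had log2 ratios of 1.29, 1.06 and 1.05, a mean of 1.13 ± 0.14 and a 2.20-fold increase (adjusted p = 3.10e-04). Fcgr4 had 1.01, 0.87 and 0.75, a mean of 0.88 ± 0.13 and a 1.84-fold increase (adjusted p = 5.08e-04). Fcgr1, the high-affinity receptor, had 0.70, 0.58 and 0.57, a mean of 0.62 ± 0.074 and a 1.53-fold increase (adjusted p = 6.44e-04). Pool 1 was the highest of the 3 pools for each of these genes. Fcgr2b, the inhibitory receptor, which sinusoidal endothelium also carries, had 0.012, 0.074 and -0.14, with a mean of -0.019 ± 0.11 (adjusted p = 0.800). Its 95% interval of -0.15 to 0.11 does not reach the intervals of Fcgr3 (0.99 to 1.28), Fcgr4 (0.74 to 1.02) or Fcgr1 (0.50 to 0.73). A direct test between these genes was not made. Fcgrt encodes the neonatal Fc receptor, which recycles IgG and albumin in hepatocytes and endothelium. It fell by 0.15 ± 0.027 (adjusted p = 0.0308), and the call was lost with any 1 pool left out.

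Of 4 paired Lilr and Pilr receptors, 3 were on this array, and Lilrb4a was not. All 3 were called higher (against 22.0% of all genes). Lilr4b had log2 ratios of 1.58, 1.59 and 1.56, a mean of 1.57 ± 0.017 and a 2.98-fold increase (adjusted p = 4.73e-05). The pools differed by far less than the distance from the control pool. Lilr4b and the inhibitory Lilrb4a are neighbouring, closely similar genes, so a probe for one may also read the other, and the probe sequences were not used here. The inhibitory Pilra rose to 0.55 ± 0.024 (adjusted p = 6.15e-04), and the activating Pilrb1 rose to 0.53 ± 0.20 (adjusted p = 0.00393).

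Members were also sorted by signal, with values known. For comparison, 22.0% of all genes were called higher and 21.4% lower. Of 15 activating receptors, 11 were called higher and 2 lower (Cd300e and Siglech), with a median of 0.43. Of 10 inhibitory receptors, 9 were tested on this array. Of these, 3 were called higher (Clec12b, Cd300lf and Pilra) and 0 lower, with a median of 0.026. The inhibitory Lilrb4a was not on this array and had a mean of 2.87 on the cDNA array. Lilr4b, whose probe may also read Lilrb4a, was sorted into neither class. On the cDNA array the median was 1.25 for 3 activating members and 0.355 for 5 inhibitory members. Siglech was not lower without pool 1 or without pool 3. No test of the difference between these classes was made. The classes hold members only, so the medians do not cover inhibitory receptors as a whole. Receptors outside the name pattern were not sorted by signal, and the inhibitory Pirb and Lair1 among them, given below, were called higher. In all, 14 of the 17 members called higher and 3 of the 7 called lower (Cd300e, Clec2m and Clec10a) were called with any 1 pool left out.

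The clusters held neighbours with unlike values. On chromosome 6, which carries 18 of the 42 members, the run from Clec12b through Clec1b, Clec9a and Clec1a to Clec7a had means of 0.28, 1.17, 0.39, -0.24 and 2.66. The lowest of these, Clec1a, lies directly beside the highest. On chromosome 1, Fcgr2b at -0.019 is followed by Fcgr4 at 0.88 and Fcgr3 at 1.13. On chromosome 11, Cd300ld at 0.39 and Cd300c2 at 1.29 are adjacent, and Cd300e at -0.29 and Cd300lf at 0.49 lie beyond them with another gene between the last pair. On chromosome 5, Pilra and Pilrb1 are adjacent and had similar means of 0.55 and 0.53.

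**Figure D2:**
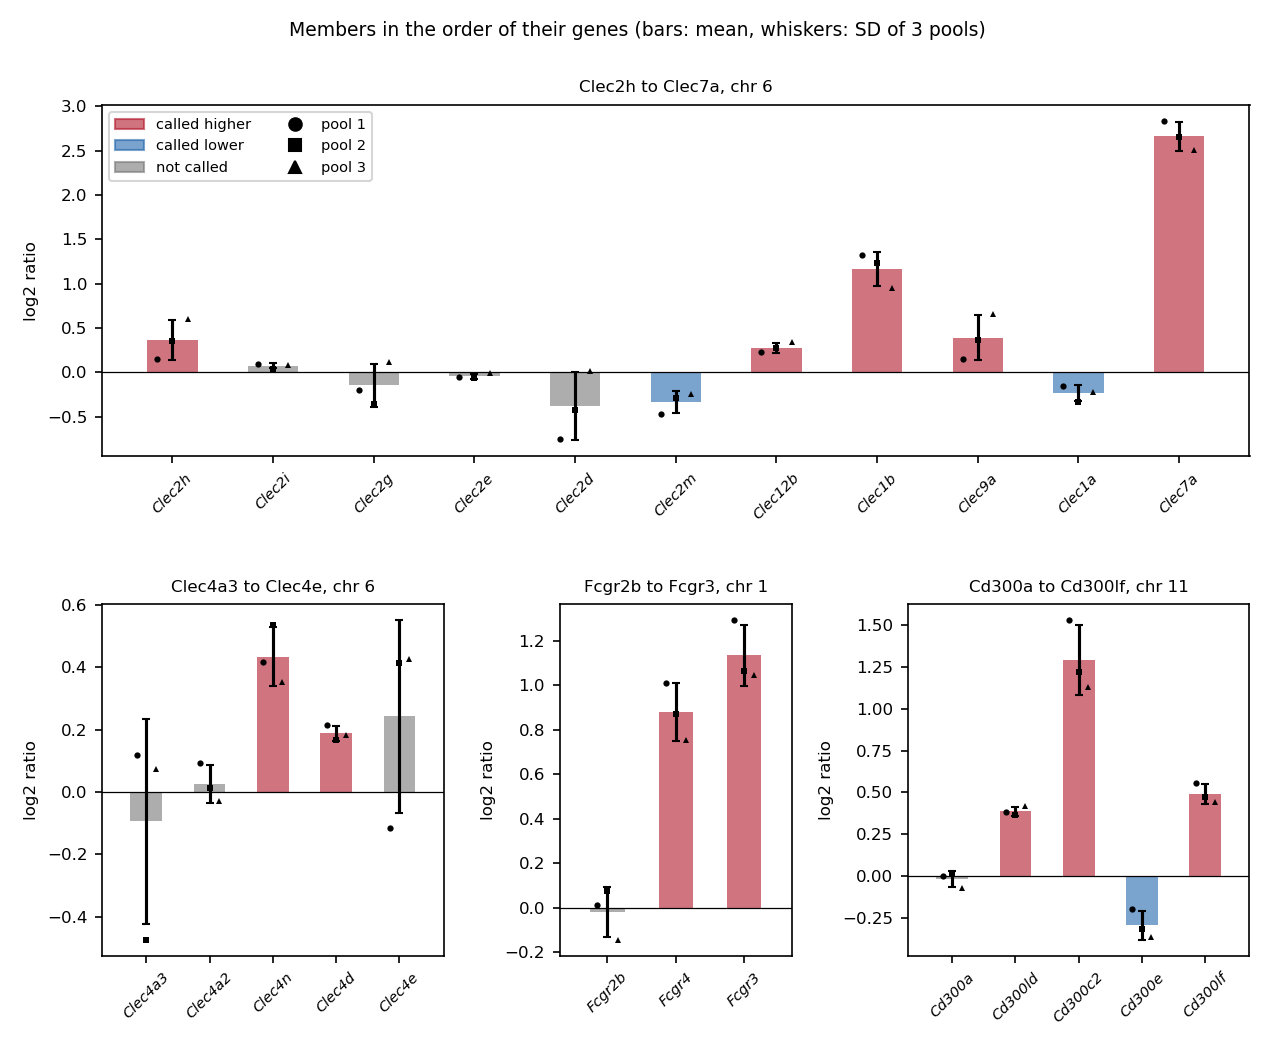
Log2 ratio of P-407 pools over the control pool on the oligonucleotide array (y axis) for members in the order of their genes (x axis) in 4 clusters, with bars at the mean, whiskers for the SD of 3 pools and points for pools. Clec1a at -0.24 stands beside Clec7a at 2.66, and Fcgr2b at -0.019 beside Fcgr4 at 0.88.

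The cDNA array is a second readout of the same pools, with other labelling and more spread. It measured 14 members on all 3 arrays, and none of the activating lectins was among them. Limma called 0 members higher and 0 lower, as it called 0 of all 5011 genes (0%). At an unadjusted p under 0.05 there were 5 of 14 members (35.7%), close to the share of all genes (30.3%, 1518 genes). The median SD over pools was 0.387 for members on this array, where it was 0.0994 on the oligonucleotide array. The 5 members were Lilr4b, Lilrb4a, Fcgr1, Cd300c2 and Clec10a, and the 4 of them that are also on the oligonucleotide array had the same sign there.

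Lilr4b had log2 ratios of 4.05, 3.08 and 2.49 on the cDNA array, with a mean of 3.21 ± 0.79 (unadjusted p = 0.00117, adjusted p = 0.0984). Lilrb4a, measured only there, had 4.74, 2.44 and 1.42, with a mean of 2.87 ± 1.70. Both genes had 3 positive ratios, with pool 1 highest, and a probe for one may read the other. Fcgr1 had 1.90, 3.07 and 0.37, a spread of 1.35 around 1.78, while Cd300c2 was even at 1.10, 1.16 and 1.48 with a mean of 1.25 ± 0.20. Clec10a had -1.33, -1.23 and -0.80, all below 0, with a mean of -1.12 ± 0.28 (unadjusted p = 0.00339, adjusted p = 0.0984). The other members on this array, none of which reached an unadjusted p under 0.05, had means between -0.61 (Clec2e) and 0.47 (Fcgr3). Pilra was read by 2 features that disagreed in pool 2 (0.77 and -0.80) and averaged 0.355. Clec2d gave values on 2 of the 3 cDNA arrays (1.41 in pool 2 and -0.11 in pool 3) and Clec2m on 1 (0.65 in pool 3). Both were left out of the fit. In the same pools the oligonucleotide array had the opposite sign, with -0.42 and 0.017 for Clec2d and -0.25 for Clec2m.

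When both arrays of a pool were averaged, 13 members could be tested among 4702 genes. Limma called Lilr4b, Cd300c2 and Fcgr3 higher (23.1% of members, against 2.47% of all genes) and Clec10a lower (7.69%, against 2.64%). Lilr4b averaged 2.39 ± 0.40 (adjusted p = 0.0394), Cd300c2 1.27 ± 0.070 (adjusted p = 0.0394), Fcgr3 0.80 ± 0.18 (adjusted p = 0.0434) and Clec10a -0.75 ± 0.21 (adjusted p = 0.0487). All 4 calls were lost without pool 1 or without pool 2, when limma called 0 genes of any kind. Fcgr1, at 1.2 ± 0.68, was not called (adjusted p = 0.0815), but was called without pool 3. The means of the 2 array types had the same sign for 11 of 13 members, where 58.3% of all genes had. The exceptions were Siglec1 and Siglecg.

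**Figure D3:**
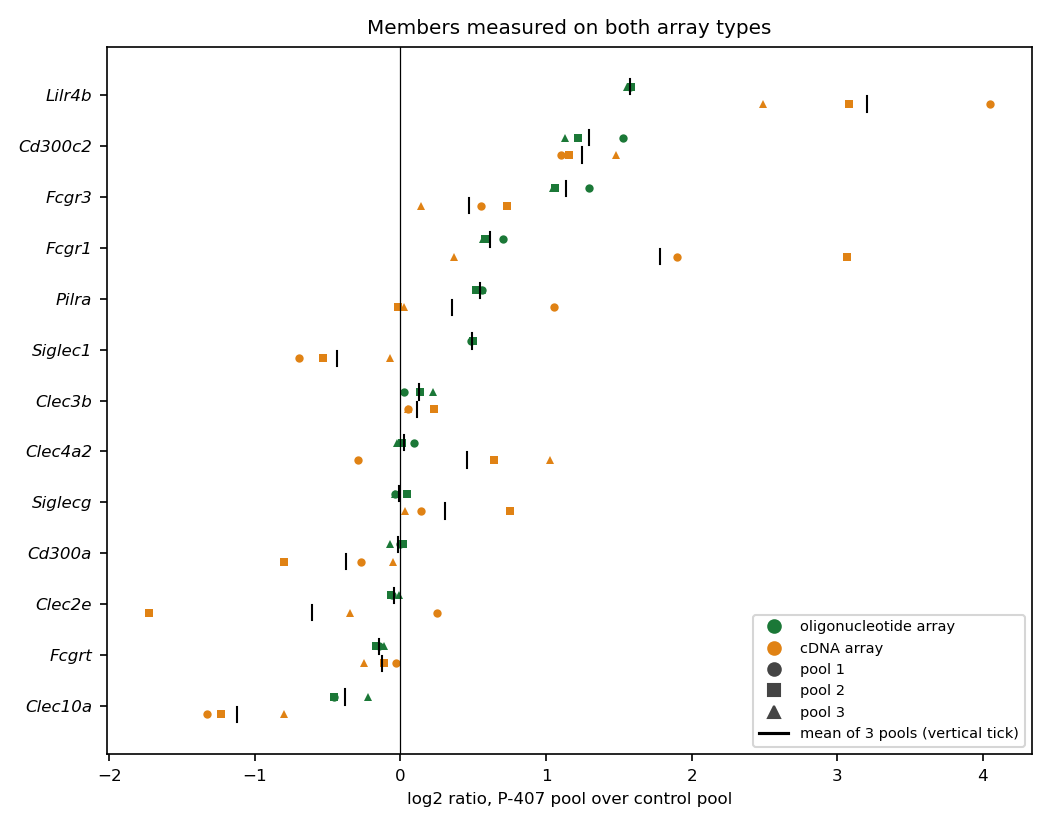
Log2 ratio of each P-407 pool over the control pool (x axis) for the 13 members measured on both array types (y axis), with the oligonucleotide array above the cDNA array, 1 symbol per pool and a vertical tick at the mean. The cDNA points spread more widely, Lilr4b and Cd300c2 are positive in every pool on both types, and Siglec1 lies at 0.48 to 0.50 on the oligonucleotide array and at -0.70 to -0.07 on the cDNA array.

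Whether a member read differently on the 2 array types was tested across the 6 arrays. Siglec1 was the only one of the 13 called (7.69%, against 11.4% of all genes). It had 0.48, 0.50 and 0.50 on the oligonucleotide array and -0.70, -0.53 and -0.07 on the cDNA array, and these sets do not overlap. The difference was 0.93, with a 95% interval of 0.48 to 1.38 (adjusted p = 0.0386). With the pool as a block the difference was not called (adjusted p = 0.134), nor was it without pool 1 (adjusted p = 0.268) or without pool 2 (adjusted p = 0.244). The blocked fit called no gene at all and recovered no changed gene on simulated data, described below, so its missing call says little. The fit without the block made more false calls on simulated data than its threshold allows. It also assumes 1 spread for both types, while the SD of Siglec1 was 0.0077 on the oligonucleotide array and 0.33 on the cDNA array. The direction of Siglec1 in treated liver is therefore given for the oligonucleotide array alone. Clec10a (difference 0.74, adjusted p = 0.0525) and Lilr4b (difference -1.63, adjusted p = 0.0527) missed the threshold with ratios farther from 0 on the cDNA array. Fcgr3 was farther from 0 on the oligonucleotide array (difference 0.66, adjusted p = 0.0735). Cd300c2 had a difference of 0.048, with an interval of -0.37 to 0.46, Clec3b of 0.017 (-0.27 to 0.30) and Fcgrt of -0.015 (-0.28 to 0.25). The intervals of Fcgr1 (-2.80 to 0.48), Clec2e (-0.67 to 1.80), Clec4a2 (-1.28 to 0.41), Pilra (-0.57 to 0.95), Siglecg (-0.84 to 0.20) and Cd300a (-0.16 to 0.87) were wide and included 0.

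The adaptors and kinases through which these receptors signal formed a separate list of 21 genes, which also holds phosphatase genes and Cd3e. Of 18 tested on the oligonucleotide array, 15 were called higher (against 22.0% of all genes) and 0 lower, with a median of 0.45. Blnk, an adaptor of Syk signalling best known from B cells, was at 1.96 ± 0.12 (adjusted p = 7.84e-05). Tyrobp, which encodes the activating adaptor DAP12, was at 1.83, 1.70 and 1.41 with a mean of 1.65 ± 0.21 (adjusted p = 2.53e-04). Fcer1g encodes the signalling gamma chain that pairs with the products of Fcgr1, Fcgr3, Fcgr4 and Clec4n. It was at 1.26, 1.15 and 0.99 with a mean of 1.13 ± 0.13 (adjusted p = 3.07e-04). The means of these partners were 1.13 for Fcgr3, 0.88 for Fcgr4, 0.62 for Fcgr1 and 0.43 for Clec4n. Syk itself rose to 0.50 ± 0.10. Of the phosphatase genes, whose products inhibitory receptors use, Inpp5d rose to 0.86 ± 0.21 and Ptpn6 to 0.33 ± 0.029. Ptpn11 lay at 0.047 and was not called. On the cDNA array Tyrobp lay at 2.11 ± 0.49 and Fcer1g at 1.98 ± 0.49, both with 3 positive pools and not called. Fcgr1 lay at 1.78 and Fcgr3 at 0.47 on that array. The median of 12 genes of the list was 0.79 there. Leaving out 1 pool left 12 to 14 of the 18 genes higher on the oligonucleotide array.

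Related receptors outside the name pattern were mixed. Of 39 tested, 13 were called higher and 10 lower (against 22.0% and 21.4% of all genes), with a median of 0.055. The smallest p values belonged to Trem2, a lipid receptor of macrophages that pairs with DAP12, at 4.31 ± 0.19, Lair1, an inhibitory collagen receptor, at 0.94 ± 0.11, and Pirb, an inhibitory relative of the Lilr genes, at 1.06 ± 0.25. Lower members included the hepatocyte lectin gene Asgr1, at -0.33 ± 0.068. Without pool 1, 9 were higher and 4 lower. Without pool 2 these counts were 13 and 5, and without pool 3 they were 12 and 6. Of a list of antibody genes, 4 were tested. Called higher were 3, namely Jchain at 0.93 ± 0.057, Ighm at 0.26 ± 0.064 and Ighg3 at 0.15 ± 0.021, while Mzb1 at -0.058 was not called. Among these 4, Ighg3 alone encodes a chain of IgG, the class that the Fc gamma receptors bind. Without pool 1 Jchain alone was called, and without pool 2 or without pool 3 Ighg3 was not.

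Markers of cells that carry these receptors were read on the same arrays, where 22.0% of all genes were called higher and 21.4% lower. Of 6 macrophage markers tested, 5 were called higher and 0 lower, with single-gene means from -0.075 (Cd14) to 1.84 (Lyz2), and their mean was 1.2, 0.90 and 1.0 in pools 1, 2 and 3. Of 6 Kupffer cell markers, Clec4f (0.33 ± 0.053) and Cd5l (1.48 ± 0.17) were higher, while Cd163 (-1.77 ± 0.13), Marco (-1.24 ± 0.76), Folr2 (-1.03 ± 0.050) and Vsig4 (-0.17 ± 0.049) were lower, Vsig4 not without pool 1 or without pool 2. Of 8 neutrophil markers, 7 were higher (S100a9 at 2.0 ± 0.42), and 5 without pool 1 or without pool 2. Platelet markers were higher in 3 of 4 cases, with Ppbp at 0.93 ± 0.22 and Pf4 at 0.66 ± 0.28, while Gp9 lay at -0.0072 ± 0.081. Whether platelets, Kupffer cells or other cells of the liver carry the Clec1b RNA was not tested. Beside Clec9a and Siglech, 3 of 7 dendritic cell markers were higher and 1 lower, with Itgax at 1.34 ± 0.21 and Xcr1 at 0.012 ± 0.039. Without pool 1 or without pool 2 the lower one, Zbtb46, was not called, nor was Ccr7, 1 of the higher ones.

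Of 8 sinusoidal endothelial markers, beside Fcgr2b, Clec14a and Cd300lg, 0 were called higher and 2 lower, a share of lower genes near that of all genes, with Clec4g at 2.0e-04 ± 0.13 and Gpr182 at -0.51 ± 0.14. Without pool 3, 1 was higher and 3 were lower. Of 4 B cell markers 2 were higher. The T and NK cell list, of 7 genes, had 3 higher and 1 lower, and without pool 3 only Cd4 was called. Of 7 hepatocyte markers 0 were higher and 4 lower, among them Ass1 at -0.70 ± 0.051. The files hold ratios and no levels, so no marker could be checked for absence. What part cell numbers have in any of the members' ratios was not tested.

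**Figure D4:**
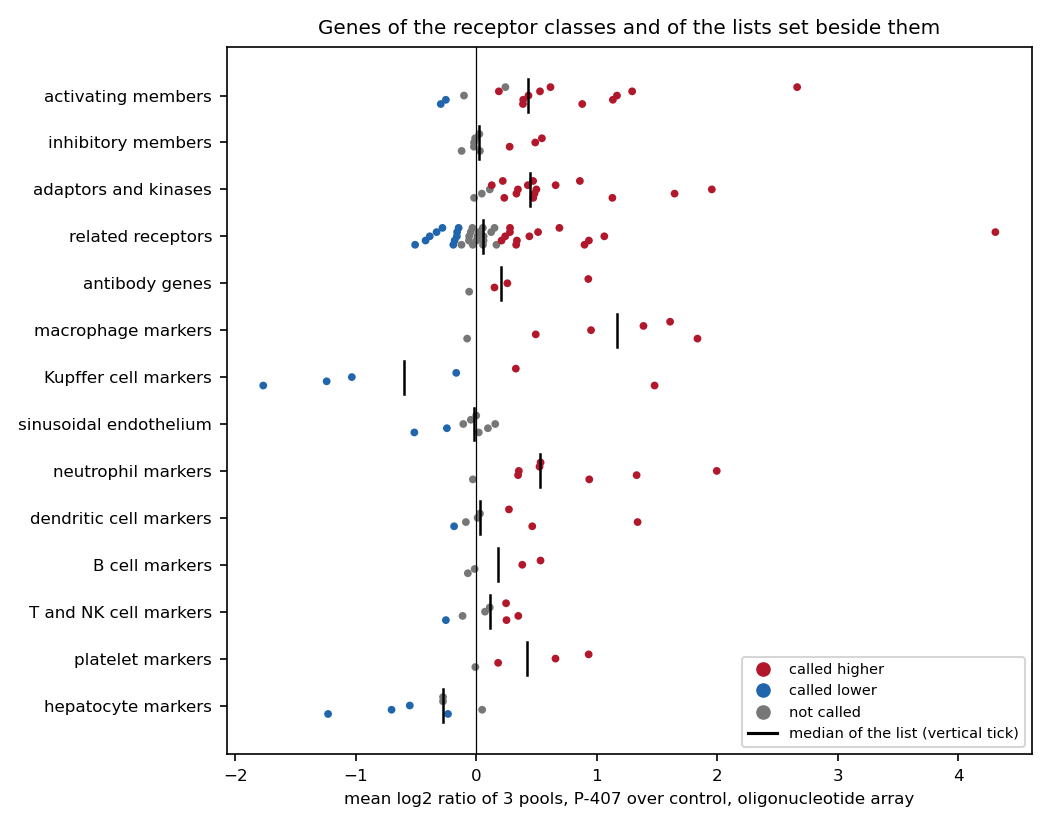
Mean log2 ratio over 3 pools on the oligonucleotide array (x axis), 1 point per gene, for activating and inhibitory members and for the lists set beside them (y axis), coloured by call, with a vertical tick at the median of each list. Adaptors and kinases have their median at 0.45 and activating members at 0.43, while inhibitory members have theirs at 0.026. Lilr4b is in neither class, and the inhibitory Lilrb4a was not on this array. Related receptors were not sorted by signal and include the inhibitory Pirb and Lair1, both called higher.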

How the data were processed

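Liver RNA of 3 P-407 pools was compared with 1 control pool on 2-colour Agilent arrays, of the oligonucleotide and the cDNA type. Both types received the same RNA, 0.5 ug amplified for the first and 10 ug labelled directly for the second, per the labels' protocols. The deposited values are log ratios made by the authors, read here as log2. For their base, direction, background correction and normalization, the sources used here give no statement. Scanner intensities were not used here, so depth is unknown and precision is limited by how many arrays there are. P-values measure the spread between pools.

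Zeros were treated as missing, each array was centred on its median, and features of a gene were averaged. Features were named from the platform annotation, and 18658 of 22575 oligonucleotide and 7410 of 13482 cDNA features named 1 gene. Each type was fitted with limma 3.58.1 (R 4.3.3, lmFit and eBayes, mean of 3 pools against 0), with Benjamini-Hochberg adjustment over all genes and a threshold of 0.05. On simulated data with 2-fold changes, the oligonucleotide and joint fits recovered most changed genes with few false calls. The simulated pools varied independently, with no error shared through the control pool or the dye. The simulation therefore cannot show how many calls in the real data come from such shared error. The cDNA fit and the blocked difference fit recovered none, so a missing call in either says little. The difference fit made more false calls than its threshold allows. The control pool is 1 sample in 1 dye, so its own spread is left out and dye effects cannot be told apart from treatment. Pools were averaged over types for a joint fit. The series' design text states that each pool's RNA was split between both types, so the same pool number marks the same RNA. The deviations of same-numbered arrays correlated at 0.06, 0.07 and 0.07, and the pool number was entered as a block in an alternative fit. Further alternatives were other centring, zero, feature, prior, normalization, fold and annotation choices and leaving out each pool in turn.

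Pool values are given for called members with an absolute mean of 0.58 or more and for the 3 members nearest to 0, and both means for members on both types. Pool values of other members were added with the values known. The members, lists, classes and motifs were chosen with earlier results of these data known. Tables and plots used Python 3.11.15, pandas 2.3.3 and matplotlib 3.10.9. Promoter sequences are from RefSeq, GRCm38.p6.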

Additional observations from a re-analysis of the deposited data

Results flagged for a closer look

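Siglec1 had ratios on opposite sides of 0 on the 2 array types, with an oligonucleotide minus cDNA difference of 0.93 on the log2 scale. The difference passed the threshold in the fit across the 6 arrays, which made more false calls on simulated data than its threshold allows. With the pool as a block it was not called (adjusted p = 0.134), but that fit called no gene at all and so says little. The cause of the difference was not tested.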

How the results depend on the processing

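The files hold no intensities, so dim features could not be filtered, and 3 pools against 1 control pool limit every call. On the oligonucleotide array no member changed its call or direction with no centring, zeros kept, the median feature, a robust prior, quantile normalization or features of several genes kept. The 1-sample test without the shared prior called 24 genes higher and 16 lower, with 2 members higher (Lilr4b and Siglec1) and 0 lower. With the log2 limit, 364 genes were higher and 212 lower, and 7 members higher and 0 lower. Leaving out 1 pool gave 1996 to 3180 genes higher and 2029 to 3064 lower, with 15 to 17 members higher and 4 to 6 lower. It turned the sign of uncalled members only, with log2 ratios of -0.0070 to 0.053 for Clec4a2, -0.037 to 0.0062 for Siglecg, -0.030 to 0.026 for Clec14a, -0.20 to 0.095 for Clec4a3, -0.037 to 0.0090 for Cd300a, -0.065 to 0.043 for Fcgr2b and -0.0076 to 0.054 for Siglece. On the cDNA array 0 genes were called under any alternative except the 1-sample test, which called 1 higher and no member. With both types averaged, keeping zeros or using the 1-sample test left 0 genes and 0 members in either direction, a robust prior left 0 members lower, and quantile normalization gave 263 genes higher and 251 lower. Leaving out 1 pool gave 0 to 310 genes higher and 0 to 221 lower, with 0 to 4 members higher and 0 to 1 lower, and Siglec1 lay between -0.062 and 0.099. For the difference between array types, the pool as a block left 0 genes higher and 0 lower and 0 members higher, in place of 294 and 243 genes and 1 member. No centring gave 3 members higher (Siglec1, Clec10a and Fcgr3) and put Fcgrt at 0.052. Leaving out 1 pool gave 0 to 483 genes higher and 0 to 579 lower, with 0 to 2 members higher and 0 to 1 lower. Cd300c2 then lay between -0.14 and 0.25, Fcgrt between -0.090 and 0.037 and Clec3b between -0.061 and 0.075. The cause of these changes was not tested. The block changed no other member's call.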
